A study of Mus musculus with 20 samples.

Results

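The proteasome genes were described in mouse liver, as all genes of the array whose single annotated symbol matches Psm followed by a letter from a to g and a digit. The pattern found 49 of the 18193 genes with a single symbol, and the probe set with the highest mean stood for each gene. The study measured total liver RNA of 20 male mice of mixed BL6/SV129 background, 50 to 60 days old, on 20 Affymetrix arrays. It asked, by its title, how the liver manages carbohydrate under high metabolic demand without MCAD, the medium-chain acyl-CoA dehydrogenase of fatty acid oxidation. The 4 groups of 5 mice were wild type mice given vehicle, wild type mice given LPS (lipopolysaccharide, a bacterial cell wall component) at 100 µg per 20 g body weight, and mcad-/- mice (MCAD-/- from here) given either. All 20 mice were fasted for 12 h after the injection. The labels name no litters, so the loss of MCAD and any difference in background between the genotypes cannot be told apart.

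The proteasome is the protease that degrades ubiquitin-tagged proteins into peptides. Its core is a barrel of alpha and beta rings, with catalytic sites in the beta subunits Psmb5, Psmb6 and Psmb7, and the 19S cap of ATPase (Psmc) and non-ATPase (Psmd) subunits recognises, unfolds and feeds in substrates. Interferons are known to induce the alternative catalytic subunits Psmb8, Psmb9 and Psmb10, which replace Psmb5, Psmb6 and Psmb7 in newly built immunoproteasomes, and the PA28 activator subunits Psme1 and Psme2; these shape peptides for MHC class I display.

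The stretches upstream of Psmb8, Psmb9 and Psmb5 are shown because Psmb8 and Psmb9 encode inducible subunits next to the peptide transporter genes Tap1 and Tap2 on chromosome 17, and Psmb5 encodes the constitutive partner of Psmb8. Each is the 250 bases before the RefSeq start on GRCm38.p6, read on the gene's strand: Psmb8 at chr17:34197945-34198194 on the plus strand, Psmb9 at chr17:34187331-34187580 on the minus strand, and Psmb5 at chr14:54617996-54618245 on the minus strand. Capitals mark the motif matches found on either strand, which did not overlap each other.
Psmb8: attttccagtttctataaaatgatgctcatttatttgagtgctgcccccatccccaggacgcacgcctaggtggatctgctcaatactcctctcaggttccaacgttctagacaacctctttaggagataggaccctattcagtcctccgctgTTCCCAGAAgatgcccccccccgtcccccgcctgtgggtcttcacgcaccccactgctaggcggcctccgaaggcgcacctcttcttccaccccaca
Psmb9: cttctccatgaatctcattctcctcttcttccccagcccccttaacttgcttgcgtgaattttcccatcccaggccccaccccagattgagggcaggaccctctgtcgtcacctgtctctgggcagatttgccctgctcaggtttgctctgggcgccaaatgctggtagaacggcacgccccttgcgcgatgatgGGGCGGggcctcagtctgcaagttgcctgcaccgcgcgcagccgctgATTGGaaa
Psmb5: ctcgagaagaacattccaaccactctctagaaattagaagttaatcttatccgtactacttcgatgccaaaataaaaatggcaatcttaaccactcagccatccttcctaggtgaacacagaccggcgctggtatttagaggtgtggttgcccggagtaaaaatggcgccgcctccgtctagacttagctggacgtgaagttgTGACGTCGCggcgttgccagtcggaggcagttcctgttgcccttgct
In Psmb8 the capitals are a STAT-type GAS motif, TTCNNNGAA, which 7.02% of the 32851 RefSeq windows of this length held. Psmb9, Psmb10 and Psme1 did not hold it, and Psmg1, a proteasome gene that fell with LPS (below), did. Of the 27 windows of constitutive 19S and core subunits, 0 held the GAS motif. Some of these subunits had no window, and Psma6 and Psmc2 had 2 each. In Psmb9 the capitals are a GC box, GGGCGG (32.7% of all windows and 14 of 27 constitutive windows), and a CCAAT box read on the other strand (33.8% and 10 of 27). In Psmb5 they are the core of an antioxidant response element, TGACNNNGC, which 10.2% of all windows and 4 of 27 constitutive windows held. The core of the interferon-stimulated response element, GAAA on either side of any 2 bases, was in 2.98% of all windows and in 2 of 27 constitutive windows. It was in none of Psmb8, Psmb9, Psmb10 and Psme1. The NF-kappaB motif was in 7.25% of all windows, in 5 of 27 constitutive windows and in 0 of the same 4 genes. A match is a description of letters, and a missing match says only that they are not in these 250 bases.

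Values are in intensity units, after the submitters' GCRMA normalization. Differences were fitted as log2 values with limma over the 8774 genes above 16 units on at least 5 arrays, and a gene was called at an adjusted p under 0.05. The p-values measure the spread between mice. Of the 49 proteasome genes, 46 passed that filter. Psma8, a testis-type alpha subunit, ranged from 3.29 to 7.05 units over the 20 mice, Psmb11, the thymus-type catalytic subunit, from 3.96 to 6.41, and Psmc3ip from 6.27 to 9.05. Psmc3ip, a recombination factor, and Psme3ip1, a partner of Psme3, match the pattern by name and are not subunits. Psme2 is measured here by 1 probe set shared with Psme2b, and so is outside the 49 genes.

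Acadm, the gene for MCAD, read 1450 to 4022 units in wild type livers and 9.03 to 218 in MCAD-/- livers, and the groups did not overlap. Hepatocyte markers summed to 118908 to 126730 units in wild type vehicle and 105596 to 111715 in wild type LPS livers. In MCAD-/- livers they summed to 116067 to 131524 with vehicle and 107526 to 112233 with LPS. The LPS mice thus lay below the vehicle mice in both genotypes. Between 30.2% and 32.3% of probe sets exceeded 16 units on each array, and no array repeated another. The wild type vehicle mouse 3 and the wild type LPS mouse 4 stood apart in RNA quality, with a log2 ratio of 3' to 5' actin signal of 3.18 and 3.69 against at most 2.34 elsewhere. Without both arrays the count of proteasome genes called between LPS and vehicle in wild type livers was 42, against 43 with them.

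In wild type livers LPS raised nearly the whole proteasome. Of 46 tested genes, 42 rose and 1 fell, where over all genes tested 40% rose and 24% fell. The LPS mice lay wholly above the vehicle mice for 33 of them (28.9% of all genes), and 12 rose by at least 2-fold (14.1%). The 4 inducible genes measured, Psmb8, Psmb9, Psmb10 and Psme1, all rose by at least 2-fold, with a median log2 change of 2.00. The 31 constitutive subunits of the core and 19S cap had a median of 0.64 and 30 of them rose. The sets overlapped, as 6 of these 31 also rose by at least 2-fold. Psme1, at 1.11, rose less than the constitutive Psmc4, at 1.29, and Psmc5, at 1.26. The median of all genes was 0.18. With MCAD absent 38 of the 46 rose and 1 fell (38.1% and 27.6% of all genes), 34 rose without overlap (29.6%) and 7 by at least 2-fold (12.8%). The inducible genes then had a median of 1.90 and the constitutive subunits one of 0.57, against 0.14 for all genes. With each array centred on its own median, the median change of all genes moved from 0.18 to 0.02 in wild type livers. After that centring 36 proteasome genes rose and 1 fell in wild type livers, beside 2760 and 2662 of all genes (3507 and 2107 before it), and 32 rose and 3 fell in MCAD-/- livers, beside 2833 and 2734 (3344 and 2424 before it).

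**Figure D1:**
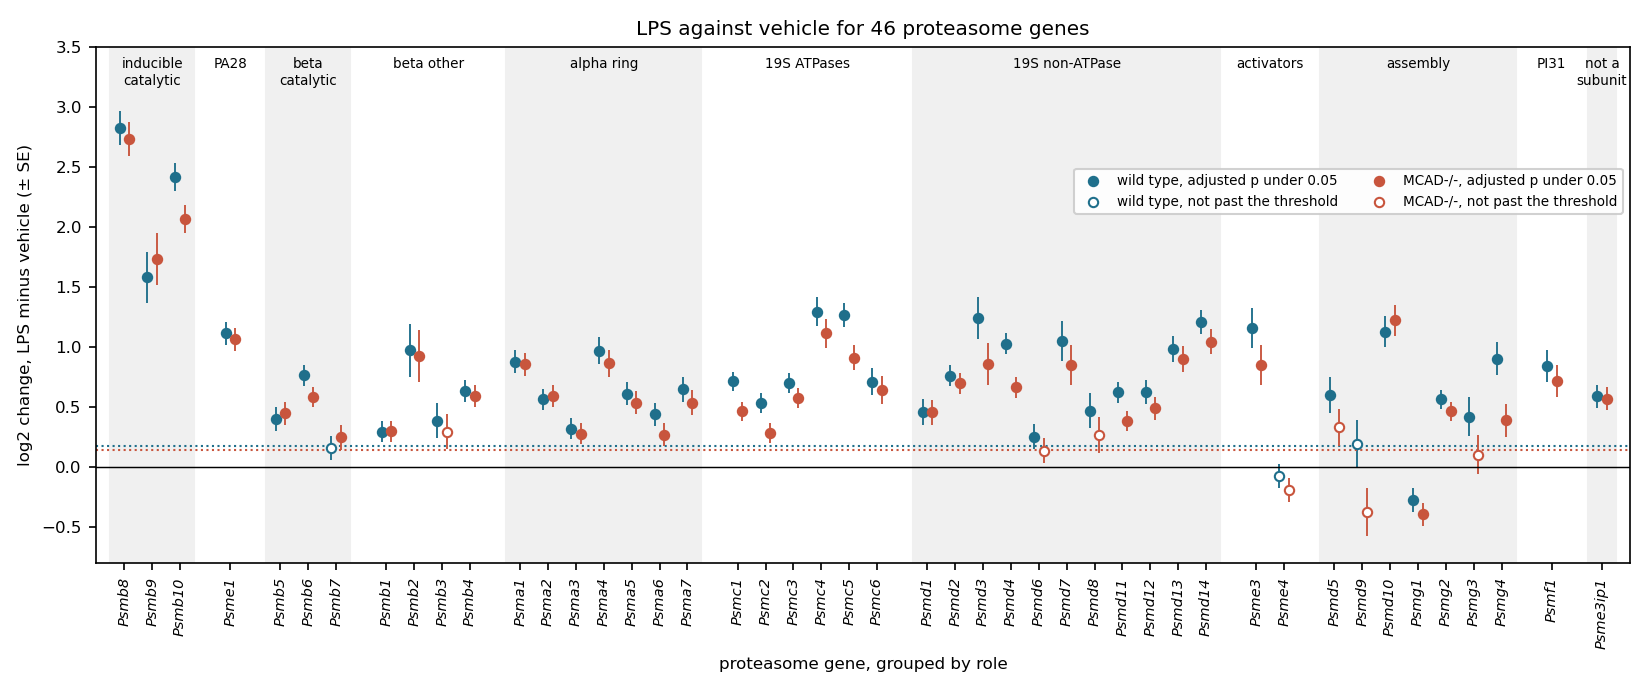
LPS-minus-vehicle log2 change (axis) of each tested proteasome gene, by role, in wild type and MCAD-/- livers. The inducible catalytic genes lie farthest to the high side, with Psmb8 at 2.83 and 2.73, and Psmg1 lies below 0 at -0.28 and -0.40.

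Psmb8 encodes the inducible subunit that takes the place of Psmb5 and had the largest rise. In wild type livers it read 80.8, 117, 64.6, 104 and 117 units with vehicle and 661, 668, 622, 749 and 643 units with LPS. MCAD-/- livers gave 90.1, 99.4, 102, 110 and 76.7 units with vehicle and 656, 595, 590, 677 and 640 units with LPS. Every LPS mouse of either genotype was above every vehicle mouse. The log2 change was 2.83 ± 0.14 (SE, n = 5 per group), or 7.09-fold, in wild type livers (limma adjusted p = 2.29e-12) and 2.73 ± 0.14, or 6.64-fold, in MCAD-/- livers (limma adjusted p = 3.55e-12). Averaging its 2 probe sets gave 2.21 (4.63-fold) and 2.00 (4.01-fold), both still called. Genotype differences of Psmb8 were 0.01 with vehicle (95% interval -0.28 to 0.31) and -0.08 with LPS (-0.38 to 0.21), neither called.

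Psmb9, which replaces Psmb6, differed by both LPS and genotype. Wild type livers read 62.1, 64.9, 57.7, 53.8 and 67.7 units with vehicle and 192, 231, 203, 182 and 123 units with LPS. MCAD-/- livers read 22.95, 49.4, 27.9, 36.3 and 40.6 units with vehicle and 93.2, 96.7, 99.0, 109 and 194 units with LPS. All MCAD-/- vehicle mice lay below all wild type vehicle mice; with LPS the MCAD-/- mouse 5, at 194 units, lay among the wild type mice. LPS raised Psmb9 by 1.58 ± 0.21 in wild type (2.99-fold, limma adjusted p = 2.83e-06) and 1.73 ± 0.21 in MCAD-/- livers (3.33-fold, limma adjusted p = 8.05e-07). The interaction of genotype and LPS was 0.16, with a 95% interval of -0.48 to 0.79.

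Psmb10 encodes the inducible subunit that replaces Psmb7. It read 203, 231, 163, 210 and 223 units with vehicle and 1074, 1066, 1100, 1325 and 934 units with LPS in wild type livers. The MCAD-/- values were 196, 223, 182, 243 and 215 units with vehicle and 876, 908, 866, 759 and 1025 units with LPS. The LPS mice were all above the vehicle mice in each genotype, and the genotypes overlapped. The log2 change was 2.42 ± 0.12 in wild type livers (5.34-fold, limma adjusted p = 1.52e-12) and 2.07 ± 0.12 in MCAD-/- livers (4.19-fold, limma adjusted p = 1.53e-11).

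Psme1 encodes the alpha subunit of the PA28 cap. Its wild type values were 493, 534, 421, 514 and 503 units with vehicle and 1096, 1032, 987, 1135 and 1074 units with LPS. MCAD-/- values were 522, 579, 506, 598 and 542 units with vehicle and 1183, 1167, 930, 1158 and 1320 units with LPS. Groups with and without LPS did not overlap, at a change of 1.11 ± 0.10 (2.16-fold, limma adjusted p = 7.96e-09) in wild type and 1.06 ± 0.10 (2.09-fold, limma adjusted p = 1.34e-08) in MCAD-/- livers. The probe set shared by Psme2 and Psme2b had group means of 557 units with vehicle and 1172 with LPS in wild type livers and 547 and 1193 in MCAD-/- livers, which were 2.10-fold and 2.18-fold (two-sided exact permutation p = 0.00794 for each, the smallest that regrouping 5 against 5 can give).

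**Figure D2:**
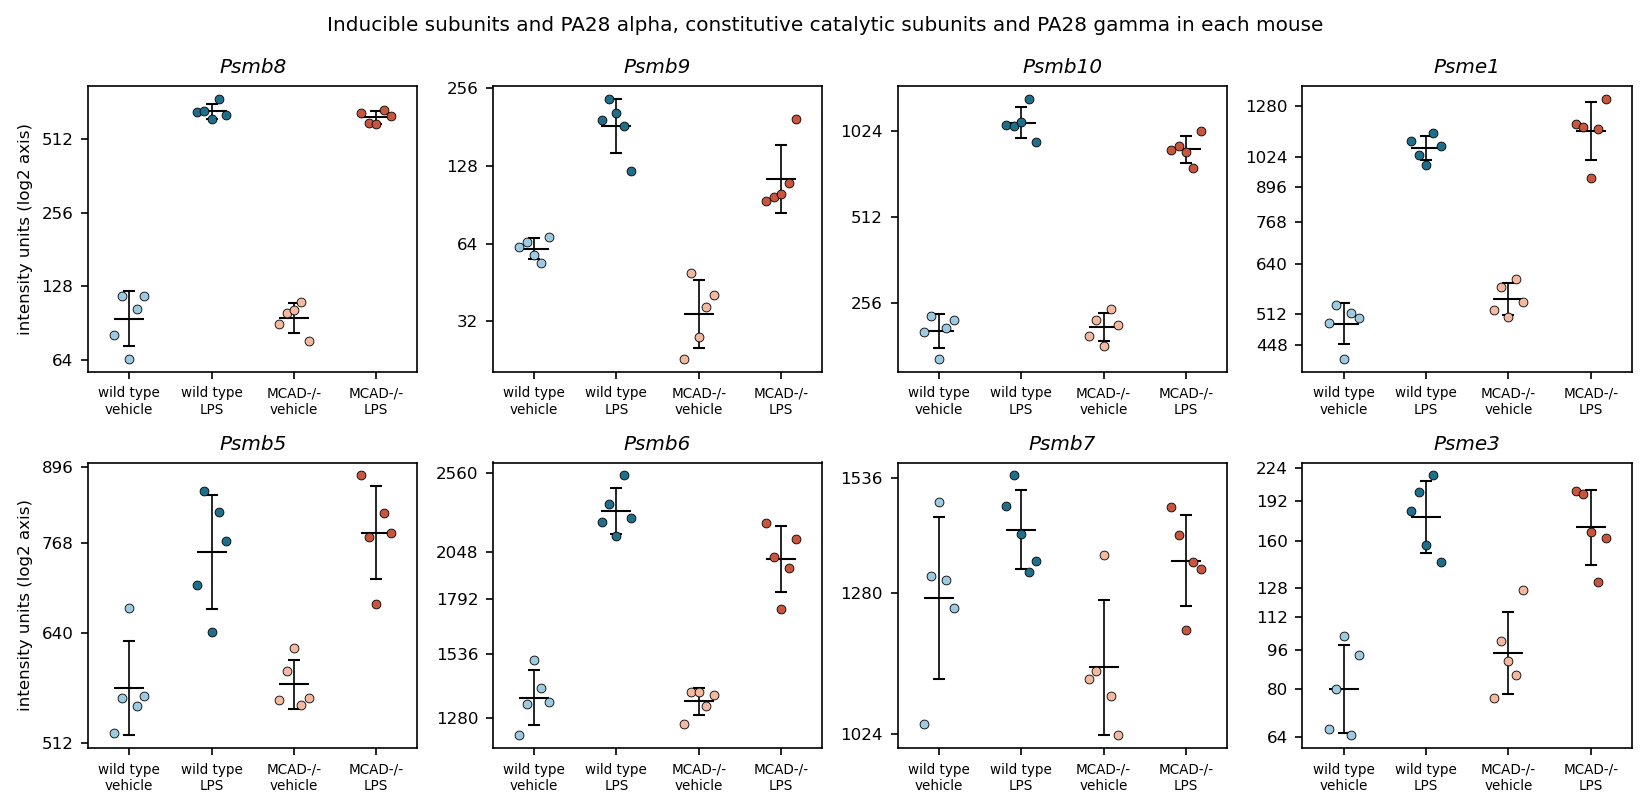
Intensity of 8 proteasome genes in each of the 20 mice (log2 axis, in units; one point per mouse, bars show mean ± SD of log2 values in each group of 5). Psmb8 lay between 64.6 and 117 units in wild type vehicle mice and between 622 and 749 in wild type LPS mice, while Psmb7 overlapped between the groups.

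The constitutive catalytic partners moved less. Psmb5, the chymotrypsin-like subunit, read 523, 561, 673, 552 and 562 units with vehicle and 706, 853, 641, 818 and 771 with LPS in wild type livers. It read 558, 592, 620, 553 and 561 units with vehicle and 880, 777, 678, 816 and 783 with LPS in MCAD-/- livers. The wild type groups overlapped through the vehicle mouse 3 and the LPS mouse 3, and the MCAD-/- groups did not. Psmb5 rose by 0.40 ± 0.10 (1.32-fold, limma adjusted p = 0.00153) and 0.44 ± 0.10 (1.36-fold, limma adjusted p = 0.000562).

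Psmb6, the caspase-like subunit, read 1219, 1331, 1510, 1395 and 1341 units with vehicle and 2230, 2343, 2142, 2543 and 2251 with LPS in wild type livers. MCAD-/- livers gave 1260, 1379, 1379, 1326 and 1368 units with vehicle and 2226, 2018, 1743, 1955 and 2123 with LPS. Neither genotype's groups overlapped, and Psmb6 rose by 0.76 ± 0.09 (1.69-fold, limma adjusted p = 2.67e-07) and 0.58 ± 0.09 (1.50-fold, limma adjusted p = 7.7e-06).

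Psmb7, the trypsin-like subunit, read 1040, 1316, 1479, 1307 and 1249 units with vehicle and 1468, 1542, 1406, 1324 and 1347 with LPS in wild type livers. The MCAD-/- livers read 1118, 1131, 1359, 1087 and 1022 units with vehicle and 1466, 1403, 1207, 1345 and 1330 with LPS. The groups overlapped in both genotypes. The wild type difference of 0.16 (95% interval -0.05 to 0.37) was not called (limma adjusted p = 0.183). The MCAD-/- change of 0.24 was called (limma adjusted p = 0.04), and the call was lost without any of 8 single mice, MCAD-/- LPS mice 1, 2, 4 and 5 and vehicle mice 1, 2, 4 and 5 (adjusted p 0.0564 to 0.099).

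Within each mouse the inducible subunit was then set against the partner it replaces, as the log2 difference of the pair; this compares changes and says nothing of the 2 genes' relative levels. With LPS the Psmb8-Psmb5 difference moved up by 2.43 in wild type and 2.29 in MCAD-/- livers, the Psmb10-Psmb7 difference by 2.26 and 1.82, and the Psmb9-Psmb6 difference by 0.82 and 1.15. In all 6 cases no LPS mouse overlapped a vehicle mouse (two-sided exact permutation p = 0.00794, adjusted over the 12 tests p = 0.0136). With each gene's probe sets averaged, the Psmb8-Psmb5 shift was 1.81 and 1.56. By genotype with vehicle, the Psmb9-Psmb6 difference was lower by -0.82 in MCAD-/- livers (exact permutation p = 0.00794, adjusted p = 0.0136). The Psmb8-Psmb5 difference was 0.00 (exact permutation p = 0.992) and the Psmb10-Psmb7 difference 0.20 (exact permutation p = 0.365). With LPS the 3 genotype differences were -0.14, -0.49 and -0.24 for Psmb8-Psmb5, Psmb9-Psmb6 and Psmb10-Psmb7 (exact permutation p = 0.0794, 0.0952 and 0.103), none past the threshold.

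**Figure D3:**
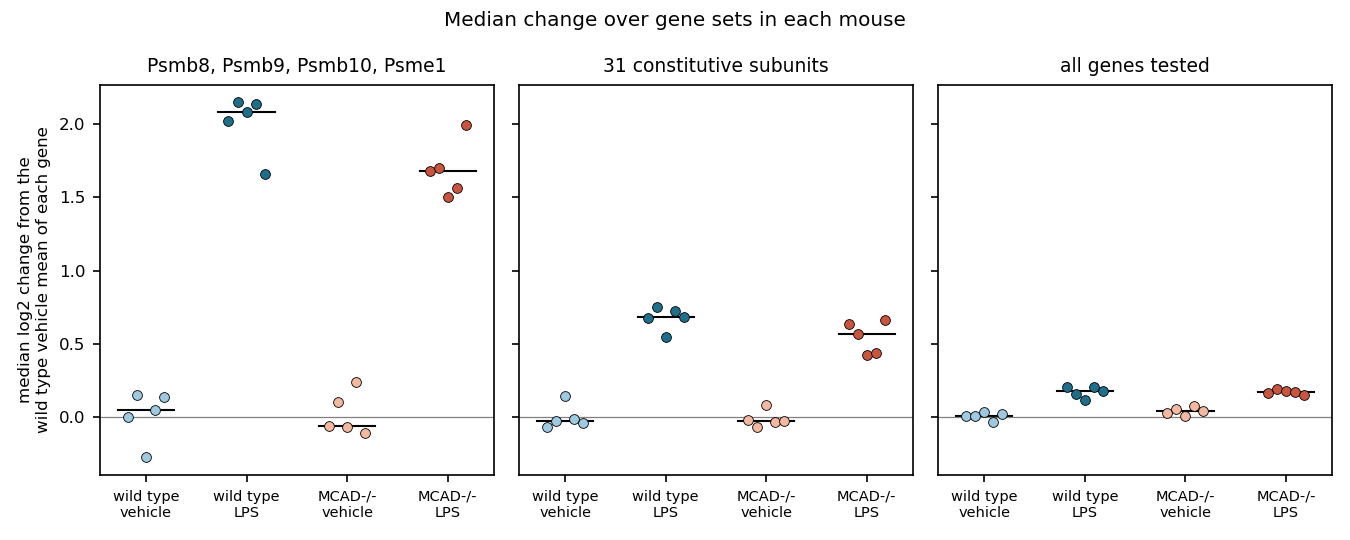
Median log2 change from the wild type vehicle mean in each mouse (points; bars are group medians), for the 4 inducible genes, the 31 constitutive subunits and all genes tested. The inducible genes lay at 1.66 to 2.15 in wild type LPS mice and 1.50 to 2.00 in MCAD-/- LPS mice, and the constitutive subunits at 0.54 to 0.75 and 0.42 to 0.67.

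The other core subunits rose together. All 7 tested alpha ring genes, which form the gated outer rings, rose in wild type livers, from 0.32 for Psma3 to 0.97 for Psma4, with a median of 0.61. All 4 structural beta subunits also rose, from 0.29 for Psmb1 to 0.97 for Psmb2. With its probe sets averaged, Psmb1 differed by -0.02 in wild type livers and was not called (limma adjusted p = 0.888). In MCAD-/- livers the alpha ring genes rose by 0.27 (Psma6) to 0.86 (Psma4), Psmb2 by 0.92, and Psmb3 was not called (0.29, limma adjusted p = 0.0877), though it would be without the MCAD-/- vehicle mouse 5 (adjusted p = 0.0333) or the wild type vehicle mouse 3 (adjusted p = 0.0493). Averaging probe sets ended the MCAD-/- calls of Psma3 (0.38, limma adjusted p = 0.0719), Psma6 (0.20, 0.0626) and Psmb1 (0.11, 0.237), and the wild type call of Psma3 (0.41, 0.0507).

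In the 19S cap all 17 tested subunits rose in wild type livers, and their median was 0.71. The ATPase ring, which unfolds substrates, had its largest changes in Psmc4 and Psmc5. Psmc4 read 336, 418, 336, 362 and 359 units with vehicle and 855, 820, 793, 1157 and 847 with LPS in wild type livers. It read 475, 349, 383, 455 and 334 units with vehicle and 869, 896, 773, 797 and 956 with LPS in MCAD-/- livers, again with no overlap. Its change was 1.29 ± 0.12 (2.45-fold, limma adjusted p = 1.99e-08) in wild type and 1.11 (2.16-fold) in MCAD-/- livers. Psmc5 rose by 1.26 (2.40-fold) and 0.91 (1.88-fold).

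Among the non-ATPase subunits, Psmd14, the deubiquitinase that removes ubiquitin chains at the cap, read 422, 421, 515, 436 and 420 units with vehicle and 1064, 1127, 908, 1096 and 917 with LPS in wild type livers. MCAD-/- livers had 361, 357, 415, 372 and 398 units with vehicle and 832, 816, 634, 785 and 872 with LPS. Psmd14 thus had no overlap by LPS, and its change was 1.21 (2.31-fold, limma adjusted p = 4.79e-09) and 1.04 (2.06-fold, limma adjusted p = 3.13e-08). Psmd3 rose by 1.24 (2.36-fold) and 0.86. At the low end were Psmd6, with 0.25 in wild type livers (limma adjusted p = 0.0381), and Psmd8, with 0.47 (limma adjusted p = 0.0101); neither was called in MCAD-/- livers, and Psmd8 would be there without the MCAD-/- vehicle mouse 3 (adjusted p = 0.0488). The wild type call of Psmd6 was lost without any of 7 single mice, wild type LPS mice 1, 2 and 4 and vehicle mice 1, 2, 4 and 5 (adjusted p 0.0519 to 0.0956).

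The other activators did not move together. Psme3, which forms the nuclear PA28 gamma cap, read 66.3, 79.8, 103, 64.4 and 93.9 units with vehicle and 184, 201, 157, 217 and 145 with LPS in wild type livers. It read 76.6, 100, 91.0, 85.3 and 127 units with vehicle and 201, 199, 167, 132 and 162 with LPS in MCAD-/- livers. Its LPS mice were above the vehicle mice in both genotypes, by 1.16 ± 0.16 (2.23-fold, limma adjusted p = 4.9e-06) and 0.85 ± 0.16 (1.80-fold, limma adjusted p = 0.000157). With its 3 probe sets averaged Psme3 rose by 0.48 and 0.34. Psme4, a single-chain activator, was not called at -0.08 and -0.20. Psmf1, an inhibitor of the core, rose by 0.84 (1.79-fold) and 0.72, and by 0.58 and 0.34 with its probe sets averaged. Psme3ip1 rose by 0.59 and 0.56.

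The assembly chaperones, which help the core and cap form, included the single gene that fell. Psmg1, a chaperone of the alpha ring, read 369, 375, 378, 374 and 364 units with vehicle and 346, 349, 278, 298 and 273 with LPS in wild type livers. The readings were 362, 364, 386, 399 and 343 units with vehicle and 300, 318, 241, 305 and 253 with LPS in MCAD-/- livers. Every LPS mouse lay below every vehicle mouse of its genotype. Psmg1 fell by 0.28 on the log2 scale in wild type livers (limma adjusted p = 0.018) and by 0.40 in MCAD-/- livers (limma adjusted p = 0.00142). The wild type call was lost without the LPS mouse 3 (adjusted p = 0.0504) or 5 (adjusted p = 0.053).

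Psmd10, a chaperone of the ATPase ring, rose by 1.13 (2.18-fold, limma adjusted p = 3.11e-07) in wild type and 1.22 (2.33-fold, limma adjusted p = 9.83e-08) in MCAD-/- livers, the largest MCAD-/- change outside the inducible genes. Of all 7 assembly chaperones, 5 rose and 1 fell in wild type livers, and Psmd9 was not called (0.19). In MCAD-/- livers Psmd5, Psmd9 and Psmg3 were not called. Psmd5 would be called there without the wild type LPS mouse 5, the MCAD-/- vehicle mouse 4 or the MCAD-/- LPS mouse 4 (adjusted p = 0.0492, 0.0443 and 0.0393), and Psmd9, at -0.37, without the MCAD-/- vehicle mouse 5 (adjusted p = 0.0283). The wild type call of Psmg3 (0.42) was lost without the wild type LPS mouse 2 or 4 or the vehicle mouse 3 or 4, and that of Psmb3 (0.38) without the LPS mouse 4 or the vehicle mouse 1, 2, 4 or 5. In MCAD-/- livers the call of Psma6 was lost without the LPS mouse 1 or the vehicle mouse 5, and that of Psmg4 without the LPS mouse 4.

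Between genotypes with vehicle, 1 proteasome gene was called when the brightest probe set stood for each gene. A second probe set of Psmd6 differed by -2.88 (below), and averaging probe sets added calls of Psmd6 and Psmd9. Psmb9 was lower in MCAD-/- livers by -0.84 ± 0.21 (1.79-fold lower, limma adjusted p = 0.0107), the only call among 46 genes, where 6.39% of all genes were lower and 16.2% differed in either direction. It was measured by 1 probe set, and its MCAD-/- vehicle values, 22.95 to 49.4 units, were close to the 16-unit filter. The median genotype difference was -0.01 over the 46 genes and 0.04 over all genes. Psmd9 was 0.54 higher without a call (limma adjusted p = 0.0749). It would be called without the MCAD-/- vehicle mouse 5 (adjusted p = 0.0233) or the MCAD-/- LPS mouse 5, which enters through the shared spread (adjusted p = 0.0457). Of the 46 genes, Psmb9 and Psmd14 had vehicle groups that did not overlap between genotypes, both lower in MCAD-/- livers, as 6.11% of all genes were; Psmd14, at -0.22, was not called (limma adjusted p = 0.162).

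Between genotypes with LPS, 9 genes were lower in MCAD-/- livers and 0 were higher, where 11.8% of all genes were lower and 8.75% higher. The difference was below 0 in 39 of the 46 genes (53.6% of all genes), and 7 were lower without overlap (7.36%); their median was -0.12, against -0.03 for all genes. Psmg4, a chaperone of core assembly, had the smallest adjusted p. It read 48.4, 48.6, 37.3, 35.8 and 33.7 units in wild type LPS mice and 23.3, 28.5, 20.4, 30.7 and 28.5 in MCAD-/- LPS mice, without overlap. The difference was -0.63 (limma adjusted p = 0.00269), at levels close to the 16-unit filter.

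Psmd11, a scaffold subunit of the cap, read 1837, 1805, 1847, 2175 and 2040 units in wild type LPS mice and 1498, 1551, 1413, 1375 and 1739 in MCAD-/- LPS mice, a difference of -0.36 (limma adjusted p = 0.00582). Psmd4, a receptor for ubiquitin chains, read 1422, 1597, 1376, 1706 and 1417 units against 1220, 1222, 1155, 1151 and 1296, a difference of -0.31 (limma adjusted p = 0.0151). Neither gene's genotype groups overlapped. Psmd14 was lower by -0.38 (limma adjusted p = 0.0116), Psmd5 by -0.51 (limma adjusted p = 0.0227), Psma7 by -0.33 (limma adjusted p = 0.0278), Psmc2 by -0.27 (limma adjusted p = 0.0289) and Psmg2 by -0.23 (limma adjusted p = 0.0425). Psmb9 was lower by -0.68 (limma adjusted p = 0.0295). Psmb10, at -0.31, was not called (limma adjusted p = 0.0689) and would be without the wild type vehicle mouse 3 (adjusted p = 0.0416), the wild type LPS mouse 5 (0.0404) or the MCAD-/- LPS mouse 5 (0.0484).

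Several of these calls rested on single mice, and the count of 9 was 5 without wild type LPS mouse 1 or 2 or MCAD-/- LPS mouse 3 or 4. That of Psmb9 was lost without any of 7 mice, wild type LPS mice 1, 2 and 3 and MCAD-/- LPS mice 1, 2, 3 and 4 (adjusted p 0.0502 to 0.0814). That of Psma7 was lost without wild type LPS mouse 1 or 2 or MCAD-/- LPS mouse 3 or 4, that of Psmd5 without wild type LPS mouse 1 or 2 or MCAD-/- LPS mouse 4 or 5, and that of Psmc2 without wild type LPS mouse 4 or MCAD-/- LPS mouse 3. The call of Psmg2 was lost in 20 of 29 alternative settings, among them without wild type vehicle mouse 2 or 5, wild type LPS mouse 1, 2, 3 or 5, MCAD-/- vehicle mouse 1, 2 or 4, or MCAD-/- LPS mouse 1, 3, 4 or 5. Leaving out both arrays of high actin ratio ended the calls of Psmb9 (adjusted p = 0.0509) and Psmc2 (adjusted p = 0.0507). Psmg4 kept its call in the 27 settings that tested it. It failed the filter, and so was not tested, with the filter raised to 64 units and with probe sets averaged. With probe sets averaged, dim ones included, Psmd11 was at -0.22 (limma adjusted p = 0.0565), and Psmd4 (0.0509), Psma7 (0.0747), Psmc2 (0.306) and Psmg2 (0.244) were not called either. With only the 2 groups in the fit, Psmd4 (adjusted p = 0.0553), Psmd14 (0.0522), Psmd5 (0.0593), Psmb9 (0.062), Psma7 (0.0928), Psmc2 (0.101) and Psmg2 (0.112) were not called.

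**Figure D4:**
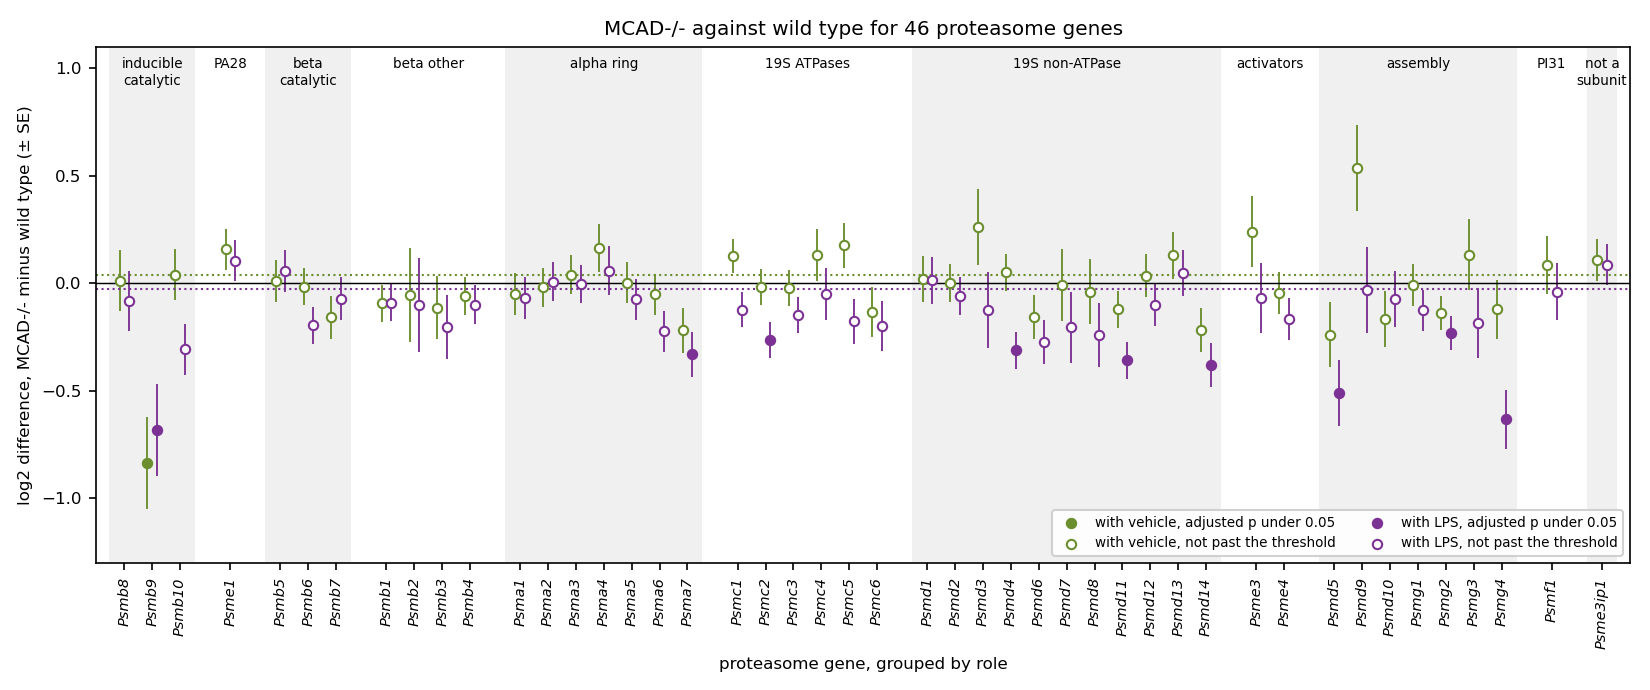
MCAD-/- minus wild type log2 difference (axis) of each tested proteasome gene by role, with vehicle and with LPS. Psmb9 lies lowest with vehicle, at -0.84, and 9 genes pass the threshold below 0 with LPS.

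The interaction of genotype and LPS, which asks whether LPS changed a gene by another amount in MCAD-/- livers, gave 0 calls among the 46 genes (limma; 4.11% of all genes). At an unadjusted p under 0.05 there were 6, Psmb10, Psmc1, Psmc2, Psmc5, Psmd4 and Psmg4 (19.9% of all genes). The smallest adjusted p was 0.0991, for Psmd4 at -0.36. The interaction was below 0 in 40 of the 46 genes (58.3% of all genes) and in all 17 subunits of the 19S cap, with medians of -0.12 over the proteasome genes and -0.07 over all genes. With each array centred on its own median, the interaction was below 0 in 32 of the 46 genes, and the median over all genes was -0.007. After a further quantile normalization it was below 0 in 41, and the median over all genes was -0.056. The share of all genes below 0 was not counted under either scaling. In the main fit the interaction was -0.09 for Psmb8 (95% interval -0.51 to 0.32) and -0.05 for Psme1 (-0.34 to 0.23).

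The choice of probe set mattered for some genes. The 49 genes have 103 probe sets, of which 74 passed the filter, and 59 of those rose and 2 fell with LPS in wild type livers. Of the 21 genes with several passing probe sets, 19 had the same sign in all. The exceptions were Psmb1 and Psmd13, a cap subunit whose brighter probe set rose from 286 to 567 units while its dim one fell from 43.1 to 19.8 (exact permutation p = 0.0238, groups overlapping). With all probe sets of a gene averaged, dim ones included, 38 of 45 genes rose and 1 fell in wild type livers and 34 rose and 2 fell in MCAD-/- livers. Shares over all probe sets, or over all genes with probe sets averaged, were not counted, so these counts have no background beside them. Changes were smaller for several cap subunits in wild type livers, with Psmd13 at 0.20, Psmd7 at 0.35 in place of 1.05, Psmd11 at 0.21 in place of 0.62, Psmd2 at 0.38 in place of 0.76, Psmd4 at 0.64 in place of 1.03 and Psmc1 at 0.39 in place of 0.71, all still called. In MCAD-/- livers the call of Psmd11 was lost (0.03, limma adjusted p = 0.753). Averaging also ended the wild type call of Psmg3 (0.13, limma adjusted p = 0.277).

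A second probe set of Psmd6, a cap subunit gene on chromosome 14, was low in every MCAD-/- mouse. It was singled out after its values were seen. It read 635, 862, 854, 619 and 822 units in wild type vehicle mice and 126, 76.2, 107, 115 and 92.6 in MCAD-/- vehicle mice. With LPS it read 1069, 832, 1097, 1133 and 1068 units in wild type mice and 136, 165, 91.8, 108 and 120 in MCAD-/- mice. Every MCAD-/- mouse lay below every wild type mouse. The difference was -2.88 with vehicle (7.37-fold lower) and -3.09 with LPS (8.49-fold lower), each with an exact permutation p = 0.00794. The brighter probe set of the same gene read 1098, 1153, 1574, 1158 and 1139 units against 1037, 1075, 1107, 1104 and 1125 with vehicle, a difference of -0.16 that was not called (limma adjusted p = 0.342). With LPS its difference was -0.27 (limma adjusted p = 0.0654, and 0.0222 without the wild type vehicle mouse 3). The cause of the disagreement was not tested.

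**Figure D5:**
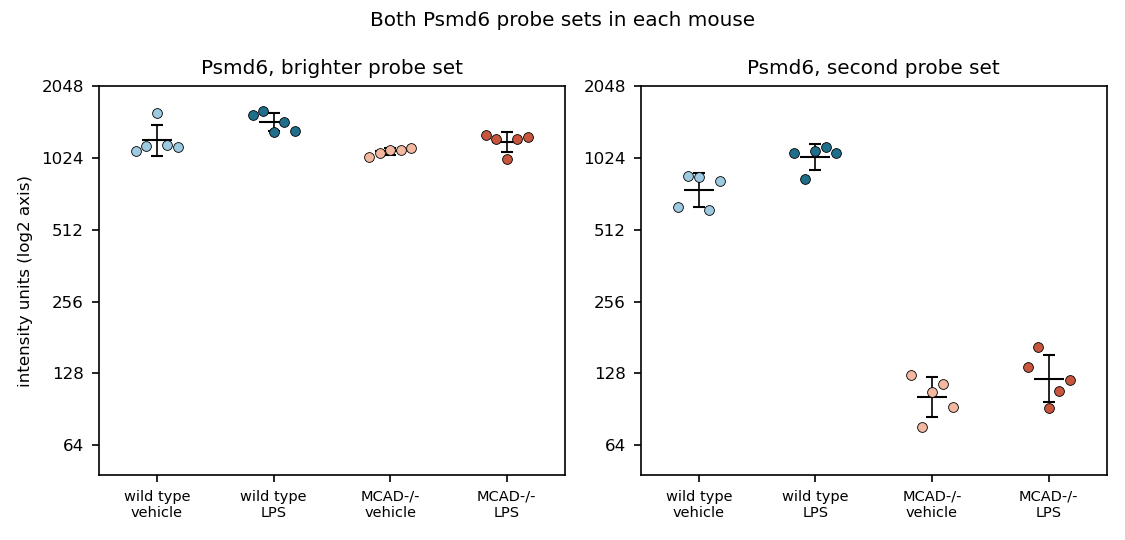
Both Psmd6 probe sets in each mouse (log2 axis, intensity in units; points are mice, bars mean ± SD of log2 values). The brighter one differed by -0.16 between genotypes with vehicle, the second by -2.88, with all 10 MCAD-/- mice between 76.2 and 165 units.

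Genes that work with the proteasome were taken from 4 lists chosen by their known roles. Of the 8 genes of the interferon-induced ubiquitin-like system on the array, which attach and remove small ubiquitin relatives, 7 rose in wild type and 8 in MCAD-/- livers (40% and 38.1% of all genes), with a wild type median of 1.81 that rests in part on vehicle values under 16 units (0.18 for all genes). Ubd, a ubiquitin-like tag that leads straight to the proteasome, went from 3.23 units, under the 16-unit filter in every vehicle mouse, to 297 with LPS. Uba7, the activating enzyme for Isg15, went from 11.6 units, with 1 of 5 vehicle mice above 16, to 132 units and Ube2l6, its conjugating enzyme, from 21.8 to 63.0. Ube2z, which conjugates Ubd, rose by 1.30 (limma adjusted p = 3.86e-07). Ubd passed the filter only through groups where it was high, so the counts of this list are partly set by the filter.

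Of 17 tested genes that load and supply peptides to MHC class I, 13 rose and 1 fell in wild type livers (40% and 24% of all genes), with a median of 0.66 (0.18 for all genes). H2-D1, a class I heavy chain, rose by 1.39, Tapbp, the tapasin that bridges class I to the transporter, by 1.80 and its relative Tapbpl by 1.47. The transporter gene Tap2 went from 12.3 to 63.4 units, with every vehicle mouse under 16. Tap2 passed the filter only through groups where it was high, so the counts of this list are partly set by the filter. Tap1, which lies between Psmb9 and Psmb8, rose by 2.25 in wild type and 2.14 in MCAD-/- livers. Unlike Psmb9, Tap1 had no call by genotype with vehicle (-0.36, limma adjusted p = 0.331); the difference between the 2 genes was not tested.

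Of 14 tested interferon and NF-kappaB factors, 8 rose and 1 fell in wild type livers (40% and 24% of all genes), with a median of 0.61 (0.18 for all genes). Irf7, a master factor of the interferon response, went from 19.4 to 654 units in wild type and from 26.0 to 465 in MCAD-/- livers, and its interaction of -0.92 was called (limma adjusted p = 0.043). Rela rose by 0.97. Nfkb2 was called higher, at 20.3 units with LPS and under 16 units in every vehicle mouse. Irf8 was also called higher, at 33.4 units with LPS and 11.1 with vehicle, where 1 of 5 mice was above 16 units. In MCAD-/- vehicle livers Irf8 read 26.7 units, called higher than in wild type (limma adjusted p = 0.000678). Nfkb2 passed the filter only through groups where it was high, so the counts of this list are partly set by the filter.

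Of 19 tested genes of proteasome assembly and gene control, 9 rose and 2 fell in wild type livers, near the 40% and 24% of all genes, and their median of 0.21 was close to the 0.18 of all genes. Pomp, the chaperone that builds the core, rose by 0.47 (limma adjusted p = 5.08e-05), Ufd1, a cofactor that extracts ubiquitinated proteins, by 0.76, Ubqln2, a shuttle to the proteasome, by 0.57, and Zfand2a, a stress-induced proteasome partner, by 1.65. Nfe2l1, the factor known to raise proteasome genes after inhibition, was not called (-0.01, limma adjusted p = 0.966), nor was Nfe2l2 (0.21, limma adjusted p = 0.15).

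Markers of other cells moved along with these changes. Whole liver RNA was measured, so fewer cells of a type and less RNA per cell cannot be told apart. The 8 pan-leukocyte markers summed to 89.5 to 164 units in wild type vehicle and 306 to 646 in wild type LPS livers. They summed to 249 to 344 in MCAD-/- vehicle and 502 to 786 in MCAD-/- LPS livers. With LPS 7 of 7 tested rose in wild type livers (40% of all genes). In wild type vehicle livers 4 of the 8 were under 16 units in every mouse. Some markers thus passed the filter only through groups where they were high, so this count is partly set by the filter. The 13 neutrophil markers on the array summed to 810 to 2467 units in wild type vehicle and 15288 to 17041 in wild type LPS livers, and to 138 to 3029 and 15062 to 17403 in MCAD-/- livers. Most of the wild type sums was Lcn2, an acute-phase gene that hepatocytes also express, at 727 to 2330 units in wild type vehicle and 12800 to 14266 in wild type LPS livers. S100a8 and S100a9, calcium-binding proteins abundant in neutrophils, reached 1270 and 1169 units with LPS in wild type livers. The granule genes Mpo, Elane, Ltf and Camp were among the 8 of 13 markers under 16 units in every wild type LPS mouse. The part of these markers in the LPS changes of the inducible subunits was not tested. All 15 lymphocyte and NK markers on the array failed the filter, at summed values of 66.9 to 93.7 units. Of 10 tested Kupffer cell and macrophage markers, 7 fell and 1 rose with LPS in wild type livers (24% and 40% of all genes). Their log2 changes ran from -4.94 to 5.24. The 12 such markers on the array summed to 1012 to 1839 units in wild type vehicle and 527 to 1104 in wild type LPS livers. With vehicle, 861 of all 8774 genes tested were higher in MCAD-/- livers, where Psmb9 was lower. Of 7 tested pan-leukocyte markers 5 were higher there, with the same limit of the filter. Ptprc, the common leukocyte antigen, was higher by 1.45 (limma adjusted p = 0.00105). Also higher in MCAD-/- vehicle livers were 6 of 10 Kupffer cell and 10 of 11 endothelial markers tested. Of 5 tested neutrophil markers, none was higher there and Lcn2 was lower by -2.30 (limma adjusted p = 0.0175).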

How the data were processed

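Total liver RNA of 20 mice was hybridised to Affymetrix arrays, 1 array per mouse. The authors deposited 1 value per probe set and array, and the submitters' processing notes name GCRMA (version not given in the sources used here); the deposited values are intensity on a linear scale, and log2 was taken here. Probe sets were named from the platform's annotation and matched to RefSeq GRCm38.p6 by gene ID (49 of 49 members). The brightest probe set stood for a gene. Genes above 16 units on at least 5 arrays (8774 of 18193) entered a model of the 4 group means in limma 3.58.1 (R 4.3.3), with Benjamini-Hochberg adjustment over all genes tested. The model was tested on simulated data. Python 3.11.15 and matplotlib 3.10.9 drew the figures. Exact permutation tests used all regroupings of 5 against 5 mice. The members and gene lists were chosen with earlier results of these data known. Of the 5 immunoproteasome and PA28 genes planned for, 4 had a probe set of their own.

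Genes described in full were the inducible genes and their constitutive partners. Of the others, those named were the 5 largest rises and falls past the threshold in each comparison, every call by genotype or in the interaction, every member not tested, and up to 4 genes of each further list by adjusted p; the remaining names were chosen after their values were seen. Same-numbered mice showed little shared deviation over all genes (median correlation 0.02 over 30 pairs, 7 of them over 0.1). For differently numbered mice the median was 0.001 over 120 pairs, 20 of them over 0.1. The numbers were not used as pairs in the main fit, and whether they mark a shared batch was not tested. Alternatives changed the filter, scaling, probe set rule, prior, samples in the fit and mice, 1 at a time.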

Additional observations from a re-analysis of the deposited data

Results flagged for a closer look

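In 20 of 184 groups of 5 mice, the value of 1 mouse stood far from the other 4, where chance alone would mark about 1 in 20 groups. Of these, 9 came from the wild type vehicle mouse 3, which also had a high actin ratio. It was the highest of its group for Psma2 (1232 units), Psmb3 (2007), Psmb5 (673), Psmc1 (737), Psmc6 (1120), Psmd1 (913), Psmd14 (515) and Psmd6 (1574), and the lowest for Psmd7 (204). The MCAD-/- LPS mouse 3 was the lowest of its group for Psmb2 (108 units), Psmd2 (886), Psmd6 (1012) and Psmg2 (167).

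The other 7 were Psmb2 in wild type vehicle mouse 5 (135 units), Psmb9 in MCAD-/- LPS mouse 5 (194), Psmc3 in MCAD-/- vehicle mouse 5 (959), Psmc4 in wild type LPS mouse 4 (1157), Psmd12 in wild type LPS mouse 3 (1183, the lowest), and Psmd7 (359) and Psme4 (1107) in MCAD-/- vehicle mouse 3. Mouse 3 of every group thus had flagged values, 9 in wild type vehicle, 1 in wild type LPS, 2 in MCAD-/- vehicle and 4 in MCAD-/- LPS. The reason was not tested. The probe set shared by Psme2 and Psme2b, outside the genes tested, was 2.10-fold higher with LPS in wild type and 2.18-fold in MCAD-/- livers, above every vehicle mouse.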

How the results depend on the processing

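Of 92 calls of single genes, 70 were kept in every setting that tested them (27 to 29 of 9 alternatives and 20 single mice left out), and 1 reversed: Psmb1 by LPS in wild type livers was -0.015 with a gene's probe sets averaged. Of the 9 calls by genotype with LPS, 1 (Psmg4) was kept in every setting that tested it. That count was 4 with probe sets averaged and 2 with only the 2 groups compared in the fit, and 5 to 11 with single mice left out. The count by genotype with vehicle went from 1 to 3 with probe sets averaged, by adding Psmd6 (-1.52) and Psmd9 (0.96), and was 1 to 2 with single mice left out. The LPS counts, 43 in wild type and 39 in MCAD-/- livers, ranged over 37 to 43 and 35 to 40. The gap between the medians of inducible and constitutive genes, 1.35 and 1.33, ranged over 1.23 to 1.45 and 1.22 to 1.42. Leaving out single mice moved the genotype differences of the pairs with LPS over -0.18 to -0.11 (Psmb8-Psmb5), -0.66 to -0.38 (Psmb9-Psmb6) and -0.30 to -0.14 (Psmb10-Psmb7). Psmb8-Psmb5 passed without wild type LPS mouse 2 (exact permutation p = 0.0397), Psmb9-Psmb6 without wild type LPS mouse 5 or MCAD-/- LPS mouse 5 (0.0476 and 0.0317), and Psmb10-Psmb7 without MCAD-/- LPS mouse 5 (0.0476).

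With the replicate number as a block, the counts were 42 and 38 by LPS, 1 and 8 by genotype with vehicle and with LPS, and 0 for the interaction. The block ended the calls of Psmd6 by LPS in wild type livers (limma adjusted p = 0.0641), Psmb7 by LPS in MCAD-/- livers (0.0516) and Psmg2 by genotype with LPS (0.0619), and no other call of a proteasome gene. The number of arrays, 5 a group, limits the precision, and values under 16 units lie below the filter. The interaction could not be fitted with only 2 groups.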
